A study of Mus musculus with 4 samples.

Results

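Expression of 7 genes that encode secreted growth factors of immune cells, Il9, Csf2, Il6, Il2, Il3, Csf1 and Lif, was described across all 4 RNA-seq libraries of activated lung group 2 innate lymphoid cells (ILC2s). The 7 genes were taken by their symbols from a table of 22558 genes. Of these, 6 were listed in the table of normalized counts, and 5 passed the limits on low values that left 11711 genes for testing.

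Group 2 innate lymphoid cells reside in tissues such as the lung, carry no antigen receptor, and answer the epithelial alarmin IL-33 through its receptor ST2 by secreting type 2 cytokines. Besides IL-5 and IL-13 they release growth factors that act on themselves and on their neighbours. IL-9 and IL-2 signal through receptors that contain the common gamma chain, GM-CSF (the product of Csf2) and IL-3 through receptors that contain the common beta chain, and IL-6 and LIF through receptors that contain gp130, and these receptors engage JAK kinases and STAT transcription factors, whereas M-CSF (the product of Csf1) binds a receptor tyrosine kinase. Many such genes are switched on briefly after stimulation, and their mRNAs carry AU-rich elements in the 3' untranslated region (UTR), sequences that are known to mark short-lived cytokine mRNAs.

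The study asked how loss of the adhesion molecule ICAM-1 alters lung ILC2s after IL-33 exposure. The comparison was between groups of 2 libraries each, WT mice and mice labelled ICAM-1 KO, which the study describes as constitutively deficient in the protein. The labels give C57BL/6 as the background strain of both groups, and the study's methods name the mutant line as B6.129S4-Icam1tm1Jcgr/J. Animals were 6 weeks old and received 3 intranasal challenges of 0.5 µg recombinant mouse IL-33, so that no unchallenged library was analysed here. By the study's methods, lungs were taken on day 4 and cells of 4 mice were pooled before sorting of lineage-negative CD45+ ST2+ CD127+ cells at a stated purity above 95%. The targeted gene was not lower in the mutant group. Icam1, at chr9:21015985-21028817 on the plus strand of mm10, had normalized counts of 85.2 and 83.3 for WT and of 97.6 and 110 for the libraries with the label ICAM-1 KO (log2 fold change 0.33 ± 0.11 SE, adjusted p = 0.0745 by edgeR). Counts per gene do not show from which exons the reads came, so this check could not tell a transcript of an altered allele from an intact one. It does not measure the protein either, and the group is named by its label throughout (labelled KO).

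Library depth lay between 24796148 and 28782471 counts. Markers of ILC2s were present in every library, with summed normalized counts of 7876 and 8172 in WT and 6930 and 7137 in labelled KO. Of 12 such markers, 2 were called higher (Klrg1, Ptprc) and 3 lower (Il2ra, Arg1, Id2) in labelled KO. Over all genes tested these shares were 8.8% and 4.97%. The gate excluded CD45-negative cells and cells with T, B or myeloid lineage markers. The libraries still contained RNA of genes listed here as markers of such cell types, and several of these lists differed between the groups. Which cells this RNA came from was not tested. Of the markers tested, 6 of 9 T cell genes, 5 of 7 B cell and plasma cell genes, 7 of 10 macrophage and monocyte genes, 4 of 6 alveolar epithelium genes, 3 of 6 neutrophil genes and 8 of 8 endothelium genes were called higher in labelled KO, as were 8.8% of all genes tested. Mast cell and basophil genes were called higher in 2 of 9 cases, eosinophil genes were called higher in 3 and lower in 2 of 5 cases, and fibroblast and smooth muscle genes were called in 0 of 5 cases by edgeR, DESeq2 and limma, with 1 of 5 at an unadjusted p under 0.05 in edgeR. The libraries labelled KO thus stood apart from WT in these lists as well as in the growth factor genes.

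**Figure D1:**
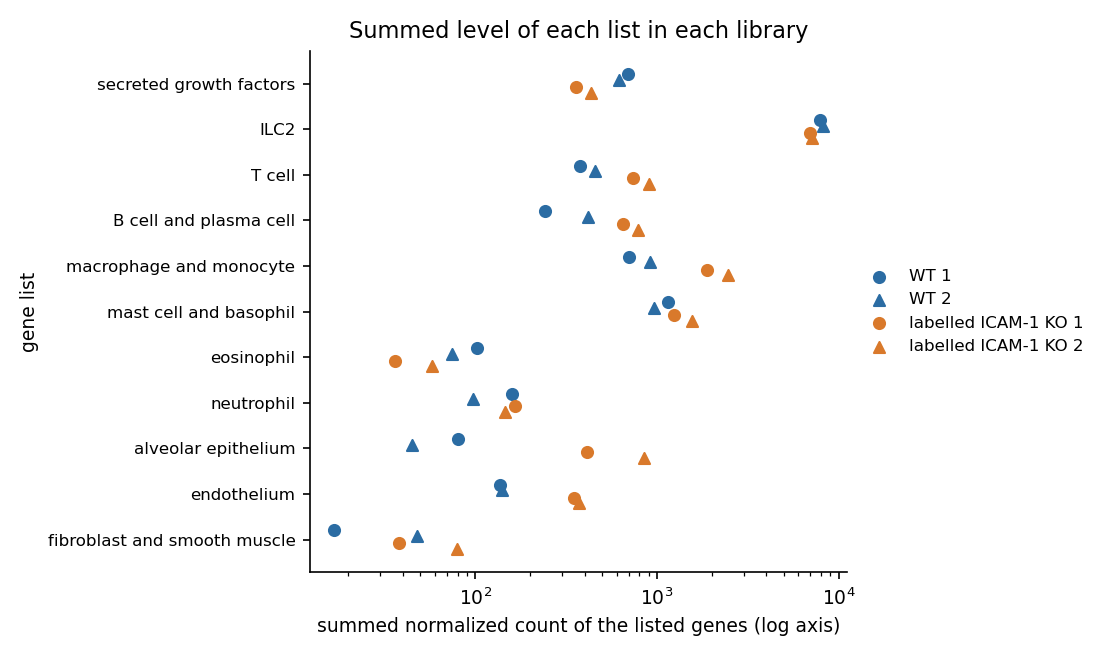
Summed normalized counts (x axis, log scale) of the secreted growth factor genes and of each marker list (y axis), 1 point per library, blue for WT and orange for labelled KO, circles for replicate 1 and triangles for replicate 2. The growth factor genes summed to 692 and 622 in WT and to 361 and 436 in labelled KO, while the macrophage and monocyte list summed to 701 and 915 in WT and to 1881 and 2464 in labelled KO.

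The 3' UTRs of the 7 genes, read from the GENCODE M21 transcripts on mm10, differ widely in AU-rich sequence. The pentamer ATTTA is the core of the AU-rich element. A stretch of 30 bases is shown for the 4 genes that were lower in labelled KO and for Csf1, which was not, with each ATTTA in capitals and in the 5' to 3' direction of the gene. The Il9 stretch lies at chr13:56479329-56479358 (minus strand), that of Csf2 at chr11:54247329-54247358 (minus strand), that of Il6 at chr5:30019677-30019706 (plus strand), that of Lif at chr11:4272414-4272443 (plus strand) and that of Csf1 at chr3:107741109-107741138 (minus strand).
Il9: agatgctATTTAttctATTTAttgaATTTA
Csf2: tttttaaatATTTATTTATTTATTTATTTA
Il6: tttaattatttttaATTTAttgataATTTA
Lif: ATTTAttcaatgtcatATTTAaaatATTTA
Csf1: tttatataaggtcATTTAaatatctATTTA
In Csf2, 5 pentamers overlap end to end within this stretch, whereas the Il9 stretch holds 3 separate ones.

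Counted over the longest annotated 3' UTR, Il9 had 3 ATTTA pentamers in 86 bases, or 34.9 per kb, and Csf2 had 9 in 317 bases, or 28.4 per kb. Only 0.0186% and 0.0279% of 10760 tested genes with a 3' UTR of at least 50 bases were as dense, against a median of 1.26 per kb and 28.3% of genes with none. Il2 followed with 7 pentamers in 581 bases, and 0.297% of tested genes were at least as dense. Il3 had a single pentamer in 101 bases, and 0.651% of tested genes were at least as dense. Il6 had 10 pentamers in 1668 bases, or 6.00 per kb. Lif and Csf1, with 2.20 and 1.89 per kb, lay well within the range of other genes in density, since 29.2% and 35.1% of tested genes were at least as dense. In number, Lif held 7 pentamers in 3180 bases and Csf1 4 in 2111 bases, against a median of 2 over tested genes. The longer motif TATTTAT was found in 6 of the 7 genes, all but Il3, and in 30.6% of tested genes. Thus 5 of the 7 genes were denser than at least 95% of tested genes, Il3 only through 1 pentamer in a short 3' UTR. A density says nothing of how fast an mRNA decayed in these cells, which was not measured.

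**Figure D2:**
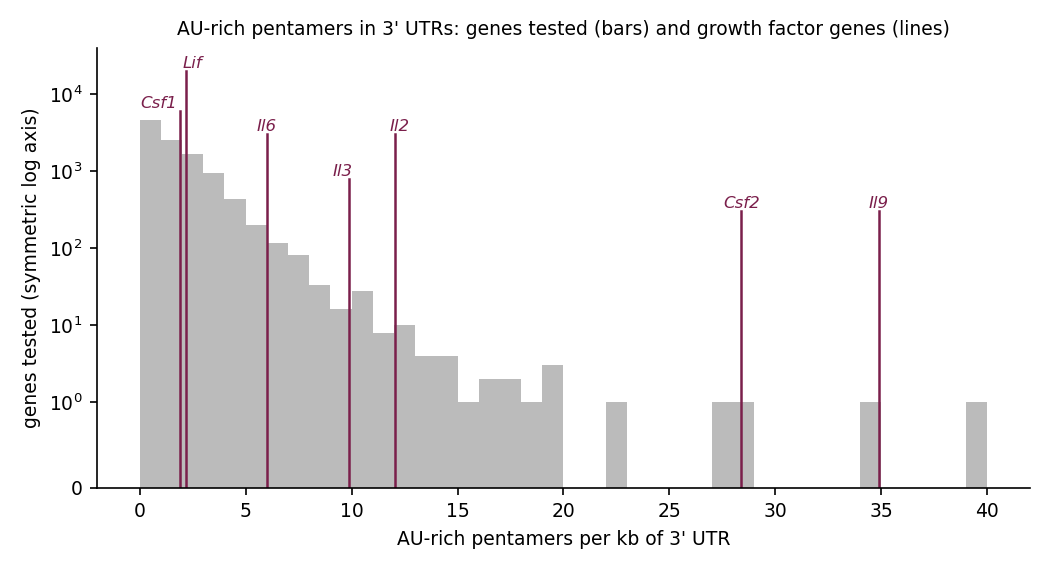
Number of AU-rich pentamers per kb of the longest annotated 3' UTR (x axis) over the genes tested (grey bars, symmetric log y axis, the last bar holding all genes at 39 per kb or more), with a vertical line at the value of each growth factor gene. Line heights only make room for the names. Il9 and Csf2 lie at 34.9 and 28.4 per kb, far to the right, and Csf1 and Lif at 1.89 and 2.20 per kb, near the bulk of genes.

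Upstream of the genes, 200 bases before the RefSeq start on GRCm38.p6 are shown for Il9 and Il6, because both windows hold a match to the NF-kB type motif GGNNTTTCC close to the start, and NF-kB is activated downstream of ST2. Capitals mark matches to GGNNTTTCC and to the AP-1 motif TGANTCA, each searched on both strands. The Il9 window is chr13:56482258-56482457 (minus strand) and the Il6 window chr5:30012914-30013113 (plus strand).
Il9: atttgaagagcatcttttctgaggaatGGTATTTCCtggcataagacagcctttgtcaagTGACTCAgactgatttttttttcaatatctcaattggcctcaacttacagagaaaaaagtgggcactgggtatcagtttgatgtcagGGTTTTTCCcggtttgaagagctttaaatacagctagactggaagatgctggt
Il6: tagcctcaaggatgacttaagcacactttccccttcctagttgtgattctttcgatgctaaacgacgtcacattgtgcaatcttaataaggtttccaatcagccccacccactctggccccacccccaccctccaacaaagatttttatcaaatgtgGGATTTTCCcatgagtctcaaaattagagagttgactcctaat
In Il9 the matches began at -173 and -53 (NF-kB type) and at -140 (AP-1), and in Il6 the NF-kB type match began at -43. Over the full RefSeq windows, which run from 250 bases before to 50 bases after each start, 4 of the 7 genes (Il9, Csf2, Il6 and Csf1) held GGNNTTTCC, which 5.82% of all 32851 windows hold, and 3 of 7 (Il9, Il6 and Lif) held TGANTCA, which 7.81% hold. The NFAT core GGAAA was present in 7 of 7 windows and in 61.3% of all windows. Every GGNNTTTCC match contains this core on the opposite strand, so the motifs are not separate counts. The STAT motif TTCNNNGAA, found in 8.30% of all windows, was in 0 of 7, and the TATAAA box, found in 13.6%, was in 1 of 7 (Il2). The RefSeq start of Csf2 lies 232 bases upstream of the start in the deposited table, so its window is not the sequence next to the start used for counting. Letters that match are a description of these windows, and binding was not measured.

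Csf2, at chr11:54247271-54249667, was the most abundant of the 7 genes in every library and made up between 51.5% and 62.2% of their summed counts. GM-CSF, its product, supports the survival and activation of macrophages, dendritic cells and eosinophils. Normalized counts (the authors' values, scaled to the upper quartile of each library) were 419 and 320 in WT and 218 and 271 in labelled KO. Both labelled KO libraries were therefore below both WT libraries, with means of 370 ± 69.6 and 244 ± 37.8 (SD, n = 2 each). The log2 fold change was -0.57 ± 0.15 (SE) with an adjusted p of 0.0352 by edgeR's quasi-likelihood test, Benjamini-Hochberg adjusted over 11711 genes. The antisense gene Gm12223 shares 96 exonic bases with Csf2, and since strand was not given in the sources used here, reads in these bases cannot be told apart. Its counts, 29.1 to 73.2, came to at most 0.577% of those of Csf2. The difference in Csf2 lost its call without WT replicate 1 (-0.36, adjusted p = 0.180) and without labelled KO replicate 1 (-0.41, adjusted p = 0.0600), and its adjusted p by edgeR, DESeq2 or limma ranged from 0.000361 to 0.180 over all alternatives.

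Il9, at chr13:56479277-56482246 on the minus strand, showed the widest gap between the groups. IL-9 is a growth factor of mast cells and T cells and a survival factor of ILC2s themselves. Its normalized counts were 84.3 and 70.2 in WT, and 15.0 and 35.2 in labelled KO. The higher labelled KO library was 2.34 times the lower one, yet both were below both WT libraries. Group means were 77.2 ± 9.98 and 25.1 ± 14.2 (SD, n = 2 each), so the labelled KO mean was 32.5% of the WT mean. The fitted log2 fold change was -1.58 ± 0.30 (SE, adjusted p = 0.0115 by edgeR), the 33rd lowest of the 11711 genes tested. Without labelled KO replicate 1 the log2 fold change was -1.10 (adjusted p = 0.000113) and without labelled KO replicate 2 it was -2.35, and without WT replicate 1 the call was lost (-1.45, adjusted p = 0.0734 by edgeR). Over the alternatives that kept every library, its adjusted p by edgeR, DESeq2 or limma ranged from 0.00535 to 0.0730. As in any bulk measurement, fewer cells that express a gene and less RNA per cell cannot be told apart here.

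Il6 and Lif encode ligands of receptors that contain gp130. Il6, at chr5:30013114-30019981, encodes a cytokine of acute inflammation and lymphocyte growth. It had normalized counts of 77.0 and 109 in WT and of 46.6 and 61.2 in labelled KO, without overlap, and means of 93.0 ± 22.7 and 53.9 ± 10.3 (SD, n = 2 each). Its log2 fold change was -0.76 ± 0.19 (SE, adjusted p = 0.0307 by edgeR). Without WT replicate 2, the higher of the WT values, it was -0.49 with an adjusted p of 0.160, and over the alternatives its adjusted p by edgeR, DESeq2 or limma ranged from 0.000472 to 0.160.

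Lif, at chr11:4257557-4272514, encodes leukemia inhibitory factor, which acts on stem cells, epithelium and neurons. Normalized counts were 95.9 and 110 in WT and 66.0 and 49.2 in labelled KO. The groups did not overlap, and their means were 103 ± 9.79 and 57.6 ± 11.9 (SD, n = 2 each). With a log2 fold change of -0.81 ± 0.15 (SE), Lif had the lowest adjusted p of the 7 genes, 0.00961 by edgeR. Without WT replicate 2 it was -0.71 with an adjusted p of 0.0616, and over the alternatives its adjusted p by edgeR, DESeq2 or limma ranged from 7.85e-06 to 0.0616. In labelled KO, Lif was higher in replicate 1, while Il9, Csf2 and Il6 were higher in replicate 2.

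Csf1, at chr3:107741048-107760469, encodes M-CSF, the factor that maintains macrophages. Its values ran opposite to those of the other tested genes. Normalized counts were 14.2 and 11.6 in WT and 14.8 and 18.1 in labelled KO, and both labelled KO values exceeded both WT values. The means, 12.9 ± 1.84 and 16.4 ± 2.39 (SD, n = 2 each), gave a log2 fold change of 0.38 ± 0.23 (SE), which was not called (adjusted p = 0.298 by edgeR).

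Il2 and Il3, the classical T cell growth factor and a growth factor of mast cells and basophils, were barely detected. Il2, at chr3:37120523-37125959, was covered by 37.2 and 29.6 estimated counts in the WT libraries and by 27.4 and 34.4 in labelled KO, with normalized counts of 1.26, 0.969, 0.985 and 1.13 in the same order. The groups overlapped, and the gene was under the limit for testing. Il3, at chr11:54265303-54267277 and 15.6 kb from Csf2, was covered by 4 and 0 counts in the WT libraries and by 1 and 0 in labelled KO, at or near the 3 counts that an observed 0 allows, so no fold is given. A difference in Il3 was not detectable at this depth.

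**Figure D3:**
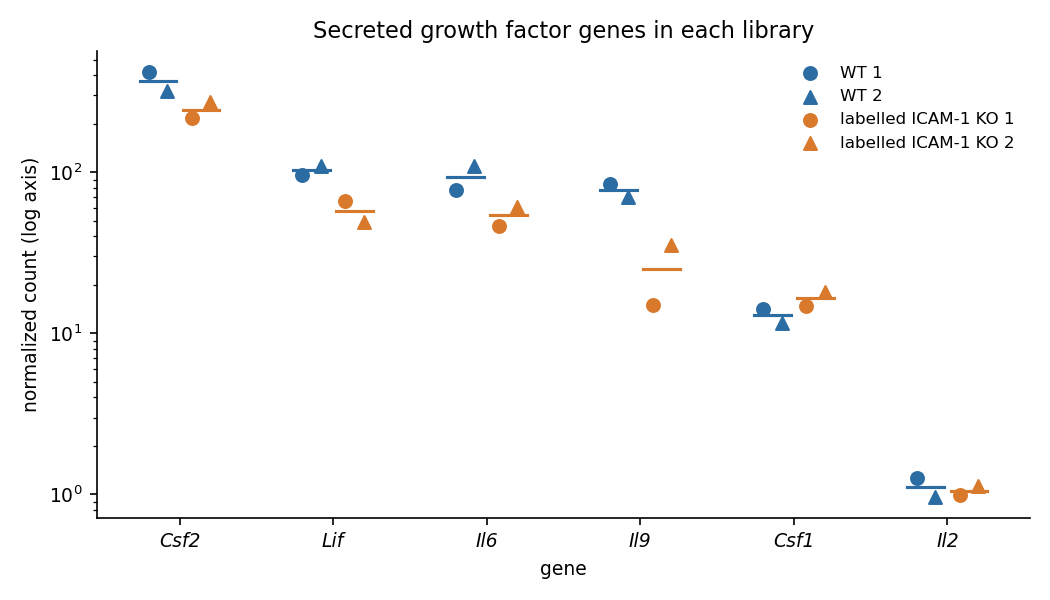
Normalized counts (y axis, log scale) of the 6 growth factor genes listed in the normalized table (x axis), 1 point per library, blue for WT and orange for labelled KO, circles for replicate 1 and triangles for replicate 2, with a bar at each group mean. Both orange points lie below both blue points for Csf2, Lif, Il6 and Il9, above them for Csf1, and among them for Il2.

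Across the 7 genes, 4 of the 5 tested were called lower in labelled KO by edgeR. Of all genes tested, 4.97% were called lower and 13.8% were called in either direction. The study had already reported lower Il9 and Csf2 in the same comparison, and the genes were chosen with earlier results known. The count is therefore a description beside these shares and not a test. Both labelled KO libraries were below both WT libraries for the same 4 genes, as was the case for 31.3% of all genes tested. One gene, Il9, was called with a fall of at least 2-fold, which 0.538% of all genes reached. The median log2 fold change of the 5 genes was -0.76, and that of all genes tested was 0.01. Together the 7 genes took 769 and 682 CPM (counts scaled to the library total) in WT and 419 and 498 in labelled KO. With 2 libraries per group, each a pool of animals, p-values rest on the spread between these libraries. The fits draw the spread of each gene toward a trend over all genes tested. For each of the 4 genes the direction was unchanged under all 12 alternatives, but the call was lost in at least 2 of them.

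**Figure D4:**
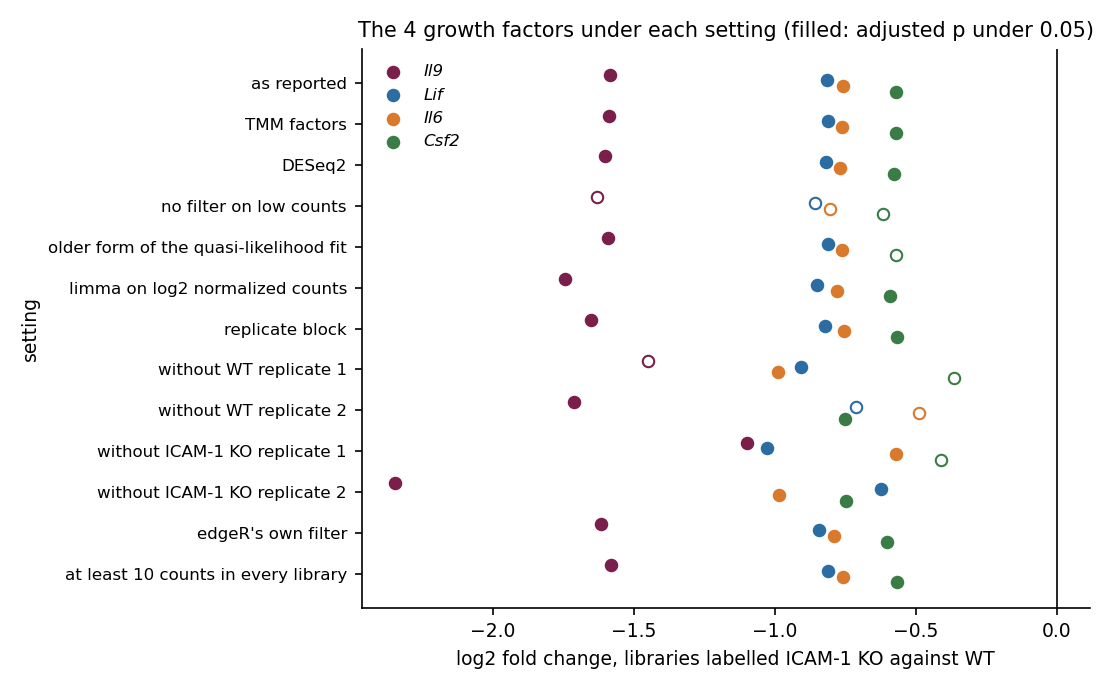
Log2 fold change of Il9, Lif, Il6 and Csf2 in labelled KO against WT (x axis) as reported and under each alternative (y axis), filled points with an adjusted p under 0.05 and open points without. All points lie left of 0. The points of Il9 range from -2.35 to -1.10, and all 4 genes are open where genes of low counts were not removed.

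Compared per length of exonic sequence in WT, Csf2 was highest at 462 normalized counts per kb, followed by Il9 at 144, Il6 at 38.3, Lif at 23.6, Csf1 at 2.44 and Il2 at 0.975. In labelled KO the order of these levels was the same, at 306, 46.8, 22.2, 13.2, 3.11 and 0.923 normalized counts per kb. Neighbours in this order did not overlap between libraries of a group. Lengths are of all annotated exons of a gene, so genes that mostly use short transcripts are underestimated on this scale. Ratios between the 4 lower genes were compared as values within each library, and differences between their folds were not tested. Csf2 was 4.97 and 4.57 times Il9 in normalized counts in the WT libraries, but 14.5 and 7.71 times Il9 in labelled KO. Csf2 relative to Il6 was 5.44 and 2.94 in WT and 4.67 and 4.43 in labelled KO. Of the 6 ratios among the 4 genes, Csf2 to Il9 and Il6 to Il9 did not overlap between the groups. The other 4, Lif to Il9 included (1.14 and 1.56 in WT, 4.39 and 1.40 in labelled KO), did. Both ratios without overlap share Il9 and are not separate observations. Lack of overlap is common with 2 libraries per group. Of all single genes tested, 31.3% were lower and 28.3% higher in both labelled KO libraries than in both WT libraries.

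All 12 receptor subunits through which the 7 factors act were tested, and here 7 were called higher and 1 lower (8.8% and 4.97% of all genes tested), with a median log2 fold change of 0.64. The subunits of the gp130 family were the furthest apart. Il6ra, the IL-6 binding chain, rose from 2.64 and 2.94 normalized counts in WT to 9.87 and 11.8 in labelled KO (log2 fold change 1.99 ± 0.32 SE, adjusted p = 0.00649 by edgeR). Lifr, the LIF binding chain, rose from 4.82 and 3.10 to 11.2 and 13.8 (1.70, adjusted p = 0.0110 by edgeR, and 0.0624 without WT replicate 2). Il6st, which encodes gp130 itself, rose from 21.3 and 33.0 to 66.7 and 66.7 (1.32, adjusted p = 0.00346 by edgeR). For each of these 3 genes both labelled KO libraries were above both WT libraries. The same held for 8 of the 12 subunits and for 28.3% of all genes tested.

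Csf1r, the M-CSF receptor, rose by 1.14 on the log2 scale (adjusted p = 0.00418 by edgeR), from 27.1 and 22.0 normalized counts to 47.6 and 58.2. The common beta chain Csf2rb had a log2 fold change of 0.75 (adjusted p = 0.00662) and its near-identical copy Csf2rb2, which in the mouse serves IL-3, one of 0.84 (adjusted p = 0.0376, up to 0.161 without a library), both by edgeR. Reads that fit both copies may be split between them, so their separate values are uncertain. Csf2ra, the GM-CSF binding chain, at 0.52, and Il3ra, the IL-3 binding chain, at -0.12, were not called (adjusted p = 0.129 and 0.792 by edgeR).

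Of the receptors that use the common gamma chain, Il2ra, the high-affinity chain of the IL-2 receptor, fell by 0.51 on the log2 scale, from 699 and 836 normalized counts in WT to 536 and 524 in labelled KO (adjusted p = 0.0133 by edgeR, and 0.0786 without WT replicate 2). Il2rb at -0.09 and the common gamma chain Il2rg at -0.07 were not called, with adjusted p-values of 0.544 and 0.646 by edgeR. Il9r was called higher at 0.43 (adjusted p = 0.0431 by edgeR), from 46.1 and 46.3 normalized counts to 63.8 and 58.6, but this call was lost whichever library was left out, with adjusted p-values from 0.0802 to 0.191. Without WT replicate 2 several of the receptor calls were lost, but calls over all genes tested also fell in that fit, so the loss is not particular to receptors.

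**Figure D5:**
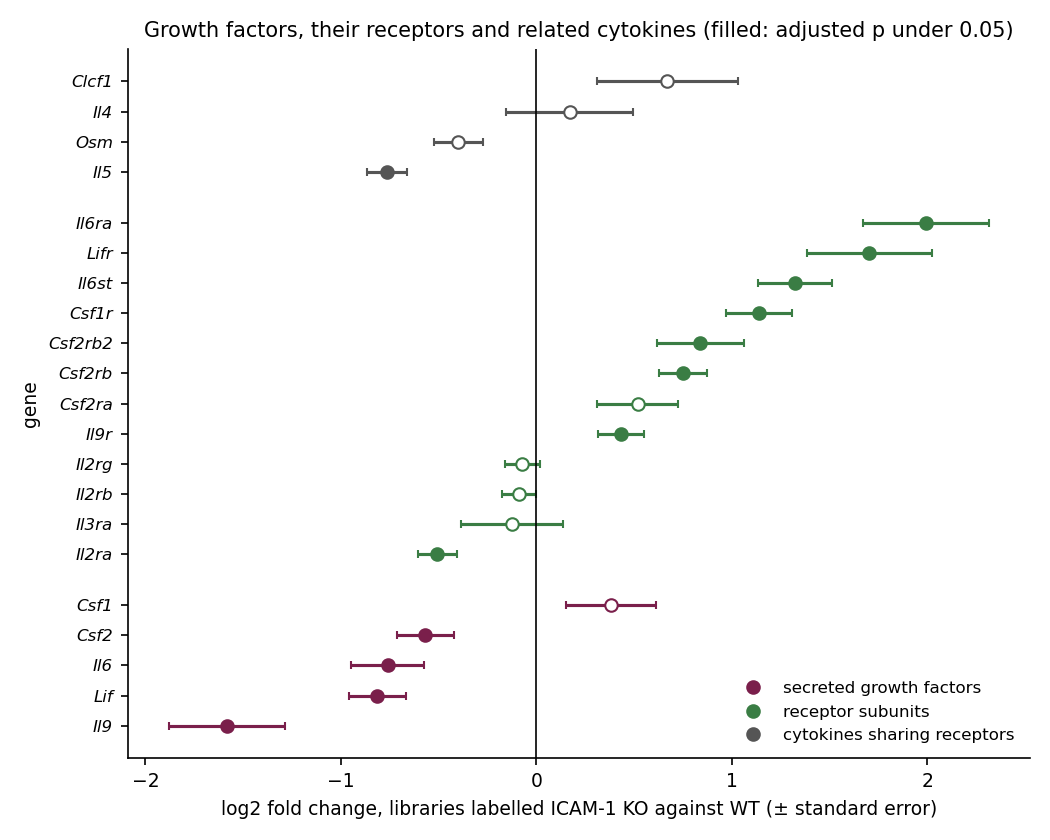
Log2 fold change in labelled KO against WT (x axis, with standard error bars) of the tested growth factor genes, of their receptor subunits and of cytokines that share receptor subunits with them (y axis), filled points with an adjusted p under 0.05. Il9, Lif, Il6, Csf2, Il5 and Il2ra lie to the left and are filled, and 7 receptor subunits, led by Il6ra at 1.99, lie to the right and are filled.

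Genes listed as markers of other cell types were also higher in labelled KO. The macrophage and monocyte list had 10 of 10 genes higher in both labelled KO libraries than in both WT libraries (28.3% of all genes tested). It holds Csf1r, which is thus counted both as a receptor and as a marker. Others in the list were Chil3 (log2 fold change 1.99) and Lyz2 (1.46). The study cites expression of Chil3 in lung ILC2s that produce IL-10, so this gene need not mark macrophages. All 8 endothelium genes were called higher, with summed normalized counts of 137 and 140 in WT and 350 and 373 in labelled KO, led in abundance by Pecam1 (1.07) and Vwf (1.71). Alveolar epithelium genes summed to 80.4 and 44.8 in WT and to 412 and 846 in labelled KO. The part of these cells in the receptor values was not tested.

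The lower growth factors are also products of other cells that the sort should have removed. Of 9 mast cell and basophil genes, 2 were called higher and 0 lower (8.8% and 4.97% of all genes tested). Their summed normalized counts were 1151 and 970 in WT and 1244 and 1559 in labelled KO, with Cpa3 at 0.40 (adjusted p = 0.0845 by edgeR) and Tpsb2 at 0.79 (adjusted p = 0.0227 by edgeR, and 0.122 without WT replicate 2), while Kit, whose product is the receptor of stem cell factor, was at -0.09 (adjusted p = 0.631 by edgeR). T cell genes summed to 375 and 459 in WT and to 740 and 903 in labelled KO, with Trac at 1.60 and Foxp3 at 1.84. Of 6 tested neutrophil genes, 3 were called higher, S100a8, S100a9 and Csf3r at 1.24, 1.32 and 1.09. The neutrophil genes Mpo and Elane were at -1.62 and -1.55 without a call (adjusted p = 0.101 and 0.186 by edgeR), and their groups overlapped. Mpo had normalized counts of 80.3 and 21.9 in WT and of 7.85 and 24.3 in labelled KO. Elane had 14.4 and 4.43 in WT and 0.694 and 5.42 in labelled KO. Eosinophil genes moved in both directions, with Ccr3, Il5ra and Alox15 called higher (log2 fold changes 1.60, 1.93 and 0.99) and the granule genes Prg2 and Epx called lower. Epx, eosinophil peroxidase, was at 33.9 and 23.4 normalized counts in WT and at 0 counts in both labelled KO libraries, and the whole list summed to 103 and 74.9 in WT and to 36.0 and 57.7 in labelled KO. Of the genes whose proteins were used to gate ILC2s, Ptprc (CD45) was called higher at 0.39 (adjusted p = 0.0138 by edgeR), while Il1rl1 (ST2) at 0.21 and Il7r (CD127) at 0.28 were not called (adjusted p = 0.173 and 0.0513 by edgeR). The part of other cells in the growth factor values was not tested.

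Among 12 cytokines that share receptor subunits with the 7 genes, 4 passed the limits for testing. Of these 1 was called, Il5, which was lower (4.97% of all genes tested were called lower). Its product, IL-5, shares the common beta chain with GM-CSF and drives eosinophil growth. Il5 mRNA fell from 1039 and 1252 normalized counts in WT to 668 and 656 in labelled KO (log2 fold change -0.76 ± 0.10 SE, adjusted p = 0.00274 by edgeR). Osm, which encodes the gp130 ligand oncostatin M, had 62.2 and 73.3 normalized counts in WT and 50.4 and 50.6 in labelled KO and was not called (-0.40, adjusted p = 0.0671 by edgeR). Il4 at 0.17 and Clcf1 at 0.67 were not called (adjusted p = 0.770 and 0.249 by edgeR).

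Transcription factors of inducible cytokine genes showed no common direction, with 3 of 25 called higher, 1 called lower and a median log2 fold change of 0.01. This share of calls is near the 13.8% of all genes tested that were called, so the genes below are given as single values. Rel, the c-Rel subunit of NF-kB, was higher at 0.73 (adjusted p = 0.00418 by edgeR), and the NFAT genes Nfatc1 and Nfatc3 were higher at 0.46 and 0.44 (adjusted p = 0.0212 and 0.0301 by edgeR). Batf, an AP-1 family member of type 2 lymphocytes, fell by 0.46 on the log2 scale, from 146 and 149 normalized counts to 105 and 106 (adjusted p = 0.0142 by edgeR). The calls of Nfatc1, Nfatc3 and Batf were each lost without either WT library. The most abundant members, the AP-1 subunit Junb at -0.20 and the type 2 lineage factor Gata3 at -0.14, were not called (adjusted p = 0.314 and 0.363 by edgeR).

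Regulators of cytokine mRNA decay likewise had no common direction, with a median of 0.27. Of 11 genes, 1 was called higher and 1 lower (8.8% and 4.97% of all genes tested). Zc3h12d, a member of the Regnase family of RNA endonucleases, was higher at 0.91 (adjusted p = 0.0322 by edgeR, and up to 0.131 without a library), with 10.4 and 14.2 normalized counts in WT and 25.0 and 20.5 in labelled KO. Hnrnpd, which encodes the AU-rich element binding protein AUF1, fell by 0.47 on the log2 scale, from 261 and 277 normalized counts to 185 and 197 (adjusted p = 0.0118 by edgeR, and 0.0653 without WT replicate 2). The members most abundant on average over all 4 libraries, Zfp36l2 at -0.10 and Elavl1 at -0.14, both AU-rich element binding proteins, were not called (adjusted p = 0.585 and 0.293 by edgeR).

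Of 12 target genes of STAT signalling, 2 were called higher and 2 lower (8.8% and 4.97% of all genes tested), with a median of 0.02. Cish, a feedback inhibitor induced by STAT5, fell by 0.58 on the log2 scale, from 443 and 454 normalized counts in WT to 286 and 303 in labelled KO (adjusted p = 0.00381 by edgeR). Myc, a driver of cell growth, fell by 0.45 (adjusted p = 0.0417 by edgeR, and up to 0.185 without a library). The anti-apoptotic genes Bcl2 and Mcl1 were higher, at 0.66 and 0.38 (adjusted p = 0.00705 and 0.0195 by edgeR), the latter call being lost in 3 of the 4 fits without a library. Ccnd2, the cell cycle gene next to Cish in abundance, was at 0.05 and not called (adjusted p = 0.822 by edgeR).

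Within 100 kb of the 7 genes, 11 other genes passed the limits for testing and 3 of them were called, against 13.8% of all genes. No neighbour of Il9 passed the limits for testing. Next to Csf2, the noncoding gene 4933405E24Rik had a log2 fold change of -0.72 without a call (adjusted p = 0.269 by edgeR), and next to Il6, Tyms and Hadha were at -0.25 and 0.02 (adjusted p = 0.119 and 0.926 by edgeR). Ahcyl1, next to Csf1, was at 0.26 (adjusted p = 0.156 by edgeR). Lif lies in the gene-dense region that also holds its relative Osm, 16.5 kb away, and of 6 tested neighbours Castor1 fell by 0.48 (adjusted p = 0.0334 by edgeR) and Ccdc157 rose by 1.47 (adjusted p = 0.0272 by edgeR). Both of these calls were lost without either WT library. Hormad2, Sf3a1 and Tbc1d10a, the other neighbours of Lif beside Osm, were at -0.44, -0.16 and -0.26 and were not called (adjusted p = 0.342, 0.308 and 0.138 by edgeR). Next to Il2, 4932438A13Rik was called higher at 0.39 (adjusted p = 0.0431 by edgeR, and 0.0663 to 0.192 without a library).

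The genes most like Il9, Csf2 and Il6 were ranked over 8919 genes by the Euclidean distance between log2 normalized counts of the 4 libraries, each gene centred on its own mean. With 4 libraries this is a description of the pattern. Fam219b (distance 0.540), Dusp23 (0.654) and the transcription factor gene Sox4 (0.731) were nearest to Il9, with log2 fold changes of -1.32, -1.29 and -1.12, and Il6 stood only at rank 51 and Csf2 at rank 80. Nearest to Csf2 were Tmem238 (0.0614), the lactate transporter gene Slc16a3 (0.0903) and Rell1 (0.106), and nearest to Il6 were Car8 (0.148), Dmc1 (0.175) and Scoc (0.217). None of the 7 genes was among the 3 genes nearest to Il9, Csf2 or Il6.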

How the data were processed

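Libraries were prepared from sorted cells with the SMARTer Ultra Low Input kit and sequenced on a NextSeq 500. The authors aligned reads to mm10 with STAR, whose version is given differently in the sources used here (3.5.3 in the submitters' processing notes), and deposited expected counts per gene, estimated by expectation maximization in Partek against GENCODE M20. They also deposited a normalized signal, scaled to the upper quartile, that equalled the sum of the count and 1, multiplied by a single factor per library.

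Expected counts were rounded and fitted in edgeR 4.0.16 (R 4.3.3) by the quasi-likelihood test with upper quartile factors. The authors' own test was not run. Genes were kept where normalized counts averaged 1 or more and summed to 10 or more. Calls required an adjusted p under 0.05. Standard errors were derived from the fold change and its F statistic. On simulated data for 11711 genes, 200 were changed, by 1 or by 2 on the log2 scale. Of these, edgeR recovered 66.0% and 93.3%, and 2.21% of its calls were false, against 7.72% for DESeq2 and 2.24% for limma. Each simulated gene had the spread of the overall trend, with none of its own, and smaller changes were not simulated. The recovery of changes as small as those of Csf2, Il6 and Lif is therefore not known from it. Alternatives used TMM factors, DESeq2 1.42.0, limma 3.58.1, an older form of the fit, a replicate block, other filters and the omission of each library. The 2 filters called edgeR's own and at least 10 counts in every library were added after seeing the data.

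Groups came from the labels. The 7 genes and all lists were chosen with earlier results of these data known. All members and their receptors were named, as well as the 2 most abundant genes and up to 4 called genes of the other lists of the pathway, the tested genes within 100 kb and the 3 genes most like Il9, Csf2 and Il6. Of each marker list, genes were named among the most abundant. Kit, Mpo, Elane, S100a8, S100a9, Csf3r, the eosinophil genes, Il1rl1, Il7r, Ptprc and the called ILC2 markers were added after their values were seen. Coordinates were taken from the deposited table, of whose 22558 genes 21880 had the coordinates of GENCODE M21. Promoter windows came from RefSeq and matched 7 of 7 genes.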

Additional observations from a re-analysis of the deposited data

How the results depend on the processing

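With 2 libraries per group, a fit without 1 library leaves a lone sample that is assumed to vary like the other group. Over the 12 alternatives run, no log2 fold change of the 5 tested growth factor genes changed sign. Without the filter on low counts, calls by edgeR fell from 1612 to 535 over all genes and from 4 to 0 among the growth factor genes. They also fell from 8 to 5 among receptors and from 4 to 2 among transcription factors. Decay regulators went from 2 to 1 and STAT targets from 4 to 2. More genes were tested in that fit. In it, 4 of the 5 growth factor genes had an unadjusted p under 0.05 by edgeR. The lowest of these was 0.00158, against 0.000355 for Lif with the filter. DESeq2 and limma were run only with the filter, where each called 4 growth factor genes. Without 1 library, calls ranged from 2 to 4 for growth factor genes, 4 to 7 for receptors, 1 to 4 for transcription factors, 1 to 2 for decay regulators, 2 to 3 for STAT targets and 681 to 1305 over all genes, with the lowest over all genes (687 and 681) without WT replicate 1 or WT replicate 2. DESeq2 called 2 of the cytokines that share receptor subunits, against 1. Deviations of same-numbered libraries from their group means had a correlation of -0.07. With 2 libraries per group this is a single value for both replicate numbers. It cannot decide whether the numbers pair samples. With the replicate block, 4 growth factor genes and 1715 genes in all were called. Depth limits Il2 and Il3, which were not tested.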
